A study of Mus musculus with 9 samples.

Results

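Genes of fatty acid uptake and oxidation were followed in the mouse heart. The group was set by gene name and not by a cut on measured values. It was chosen with earlier results of these data known. It lists 34 genes in 5 steps, namely uptake and activation, the carnitine shuttle, mitochondrial oxidation, peroxisomal oxidation, and thioesterases and uncoupling proteins. Of these, 32 had a row among the 22851 genes of the count matrix, and Cpt1b and Acaa1a were not analysed here. The hearts came from male C57BL/6 mice (C57BL/6J in the methods), 6 to 8 weeks old at the start, in 3 groups of 3 libraries each. CK mice were controls that received citrate buffer, and DCM mice received a single injection of streptozotocin (STZ) at 180 mg/kg, which destroys insulin-producing beta cells, and were killed 12 weeks later. SPM mice received the same STZ and also spermine at 1 mg/kg per day. Spermine was given daily for 2 weeks before STZ and every other day during the 12 weeks after it. The paper describes the SPM hearts as those of diabetic mice treated with spermine. Whether their diabetes matched that of DCM mice was not tested here. All mice were fasted overnight before the hearts were taken. The methods name 3 mice per group in the RNA paragraph and pools of 6 hearts in the statistics paragraph, so a library may hold 1 heart or a pool of hearts, and p-values measure the spread between these libraries only.

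The heart draws most of its energy from fatty acids. Fatty acids enter the cardiomyocyte through transporters, are bound by a carrier protein in the cytosol, are joined to coenzyme A (CoA), and cross into mitochondria as carnitine esters. There each turn of beta-oxidation runs through a dehydrogenase, a hydratase, a second dehydrogenase and a thiolase, and passes electrons to the respiratory chain. Very long chains are first shortened in peroxisomes. Many of these genes are known targets of PPAR-alpha, a nuclear receptor that fatty acids activate, and the diabetic heart is known for a shift from glucose to fatty acids.

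The 9 libraries held between 29901300 and 39718680 counts. The fatty acid genes held 1.99% to 2.07% of each CK library, 2.42% to 2.55% of each DCM library and 2.34% to 2.37% of each SPM library. For the genes encoded by mitochondrial DNA this share was 13.7% to 16.2% (CK), 15.5% to 18.9% (DCM) and 21.0% to 21.1% (SPM). SPM replicate 2 stood apart in its position between the other SPM libraries. It lay between SPM replicates 1 and 3 for 69.0% of 11990 genes with a mean count of at least 50, against 14.3% to 39.7% for each other library within its group, and for 23 of 30 fatty acid genes. Of 2656 genes at 0 in SPM replicates 1 and 3, SPM replicate 2 held a count for 30 genes (1.13%), against 15.6% to 35.0% for the other libraries. Whether it is an independent sample was not tested, so values for SPM are also given without it where they rest on it. The extraction protocol deposited with the libraries speaks of retinas, while their tissue label is heart. All 8 cardiomyocyte markers with a row were at 1 CPM (count per 1000000 counts of the library) or more in every library, and all 9 retina markers with a row were below 1 CPM in every library.

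Levels are given as normalized CPM, that is CPM with library totals scaled by the trimmed mean of M-values (TMM). A gene passed when its Benjamini-Hochberg adjusted p in the quasi-likelihood test of edgeR, over all genes tested, was below 0.05. It was called a differentially expressed gene (DEG) when its fold change was also at least 1.5, the limits of the study. Fold changes are log2 values ± standard error (SE), with 3 libraries per group. In bulk tissue, fewer cells of a type and less RNA per cell cannot be told apart.

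Compared to CK, DCM hearts expressed most of the fatty acid genes more strongly. Of 30 genes tested, 19 rose and 1 fell, whereas 5.28% of all 14402 genes tested passed in the higher direction and 5.11% in the lower. The median log2 fold change of the 30 genes was 0.36, and that of all genes was -0.00. The rises were mostly under the limit of 1.5-fold. Slc27a1, Decr1, Acot1 and Acot2 were upregulated DEGs and Ucp3 a downregulated DEG, where 2.03% of all genes tested were upregulated and 2.31% downregulated DEGs. Ucp3 passed in every alternative, but with the GC offset (-0.58) and without CK replicate 2 (-0.55) or DCM replicate 3 (-0.51) its change was under 1.5-fold. Cpt1a lay just under the limit at 1.49-fold. Upregulated genes were found in 4 of the 5 steps. They made up 3 of 4 genes of uptake and activation, 4 of 6 of the carnitine shuttle, 10 of 14 of mitochondrial oxidation and 2 of 4 of the thioesterases and uncoupling proteins. The 2 peroxisomal genes tested did not pass, with adjusted p of 0.0587 (Pex11a) and 0.949 (Ehhadh). Cd36, Slc22a5, Cpt2, Acads, Echs1, Eci1, Etfa, Ehhadh, Pex11a and Ucp2 did not pass, with log2 fold changes between -0.08 (Slc22a5) and 0.28 (Pex11a). With each of the 6 libraries left out in turn, 15 to 22 genes passed, where 5.59% to 8.91% of all genes did. Slc27a1, Cpt1a, Slc25a20, Crat, Mlycd, Acadl, Acadvl, Hadha, Hadhb, Eci2, Decr1, Acaa2, Acot1, Acot2 and Ucp3 passed in all 6 of these fits. Fabp3, Acsl1, Acadm, Hadh and Etfdh were lost in at least 1 of them.

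Compared to DCM, SPM hearts had lower levels of some of these genes, among them 4 of the 6 measured genes of the carnitine shuttle. Of 31 genes tested, 9 passed as lower and 1 as higher, whereas 7.76% of all 14493 genes tested passed in the lower direction and 8.87% in the higher. The genes that fell were Slc27a1, Slc22a5, Cpt1a, Cpt2, Mlycd, Acads, Echs1, Ehhadh and Acot1. The gene that passed as higher was Acaa1b, which met the filter on low counts only through its SPM libraries, so its call is not read as a rise. In mitochondrial oxidation 2 of 14 genes fell. Only Ehhadh and Acaa1b were DEGs, downregulated and upregulated in that order, where 0.890% of all genes tested were downregulated and 2.70% upregulated DEGs. The median log2 fold change was -0.16, against 0.01 for all genes. The number of calls depended on the libraries kept. Without SPM replicate 2, Mlycd was the only fatty acid gene that passed, and 72 of 14828 genes (0.486%) passed in all, while the median log2 fold change of the fatty acid genes was still -0.16. Without DCM replicate 2, Slc27a1 and Mlycd passed, and 194 of 14988 genes (1.29%) passed in all, with a median of -0.11 for the fatty acid genes. Without DCM replicate 1, 6 genes passed, and without SPM replicate 1, DCM replicate 3 or SPM replicate 3 the numbers were 7, 10 and 11. Of all genes, 5.04%, 12.6%, 15.0% and 16.3% passed in these fits, in the same order. Mlycd was the only fatty acid gene that passed with each of the 6 libraries left out in turn.

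The SPM libraries also differed from DCM in how levels followed the GC content of genes. Across 14484 genes, the log2 fold change of SPM compared to DCM had a Spearman rho of -0.502 with the GC content of the longest transcript, and across the 31 fatty acid genes one of -0.450. Genes are not independent replicates and the SPM and DCM libraries are shared by all points, so these values are a description. For DCM compared to CK the same values were 0.060 and -0.023. With the GC trend of each library entered as an offset, 7 fatty acid genes passed in SPM compared to DCM, and Cpt1a, Cpt2 and Acads no longer did. Over all genes, 446 of 14493 (3.08%) passed with the offset, against 16.6% without it. The sign of the fold change turned for Cd36, Acsl1, Acadl, Acadvl, Hadha, Hadhb, Decr1, Etfdh and Ucp2, none of which had passed. With a block for replicate number added to the offset, Hadhb passed in the lower direction, with -0.31 (adjusted p = 0.0473), against 0.06 without both.

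Compared to CK, SPM hearts had higher levels of most fatty acid genes. Of 31 genes tested, 20 passed as higher, Acaa1b among them, and 5 as lower, whereas 13.0% of all 14574 genes tested passed in the higher direction and 14.3% in the lower. The genes that fell were Slc22a5, Acads, Echs1, Ehhadh and Ucp3. Acadl, Decr1, Acot1 and Acaa1b were upregulated DEGs and Ehhadh and Ucp3 downregulated DEGs. Acaa1b met the filter on low counts only through its SPM libraries, so its calls are not read as a rise. Of all genes tested, 5.08% were upregulated and 4.12% downregulated DEGs. The median log2 fold change was 0.27, against 0.00 for all genes. Without SPM replicate 2, 16 genes passed, and 10.4% of all 14897 genes tested did, against 27.4% with all libraries. Fabp3, Slc27a1, Cpt1a, Crat, Acads, Hadh, Echs1, Eci2 and Acaa1b were lost. With the GC offset 20 genes passed, against 21.3% of all genes, and Cd36, Acsl1, Hadhb, Etfdh and Acads were lost. SPM compared to CK shares its libraries with both other comparisons, so the 3 sets of values are given side by side and not as independent evidence.

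**Figure D1:**
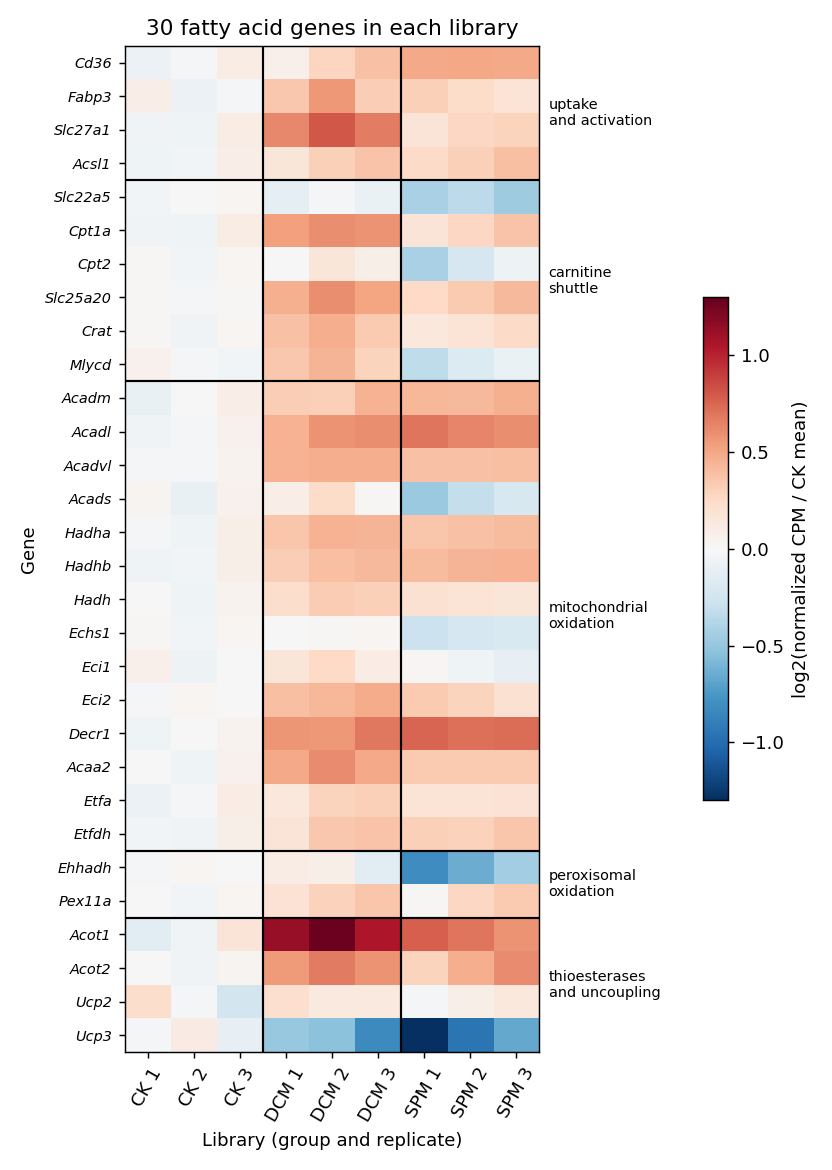
Heat map of 30 fatty acid genes (rows, grouped by step) in the 9 libraries (columns), coloured by log2 of the normalized CPM over the CK mean of that gene, from blue (lower) through white to red (higher). Most rows are red in the DCM columns, with Acot1 the darkest, while Ucp3 is blue in DCM and SPM and Ehhadh, Acads, Slc22a5 and Cpt2 are blue in the SPM columns.

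**Figure D2:**
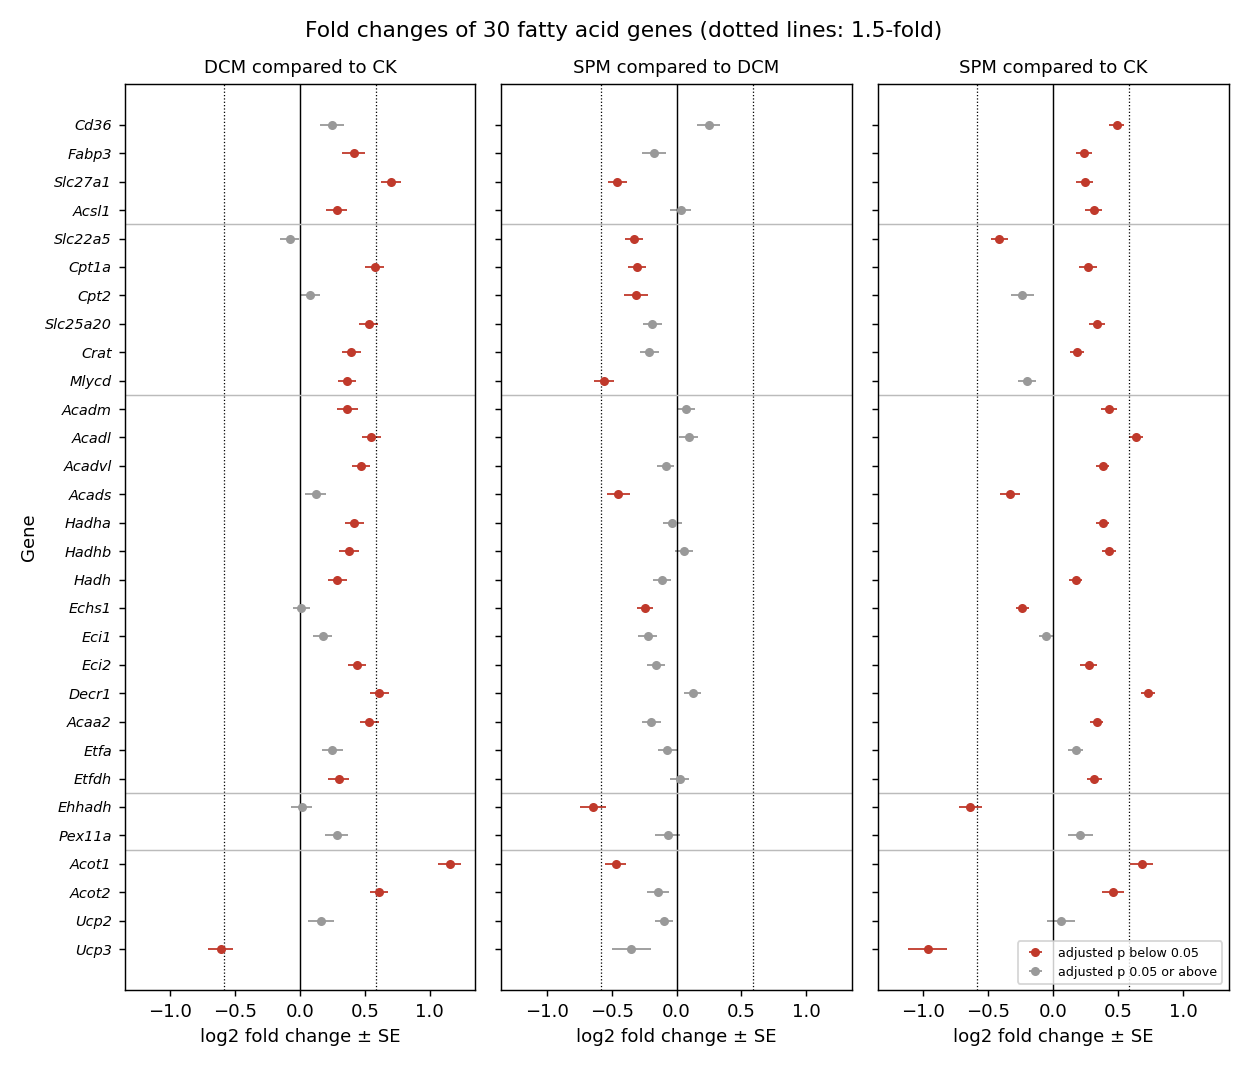
Log2 fold change (horizontal axis, points) ± SE (bars) of the same 30 genes in the 3 comparisons, with red for an adjusted p below 0.05 and grey for the rest, and dotted lines at 1.5-fold. In DCM compared to CK, 19 red points lie right of 0 and 1, Ucp3, lies left of it, whereas in SPM compared to DCM all 9 red points lie left of 0.

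Levels can be compared between genes only per length, as FPKM, in which the count is divided by the length of the gene and the library total. On this scale Fabp3 was the most abundant member in every group, with 4583 ± 260.3 FPKM in CK (SD, n = 3), followed in CK by Acaa2 with 790.0 ± 21.5, Acadl with 544 ± 13.2 and Acadm with 537 ± 29.5. Acadl and Acadm differed by less than their spread. At the low end, Ehhadh had 15.3 ± 0.356 FPKM and Pex11a 9.62 ± 0.143 in CK. The FPKM of the 32 genes summed to between 10424 and 10921 in the CK libraries, 12900 and 13859 in DCM, and 12053 and 12320 in SPM. The sums of the 3 groups did not overlap, with DCM highest and CK lowest. Fabp3 alone held a large part of each sum. The carnitine shuttle sums were 522 to 539 in CK, 613 to 655 in DCM and, in SPM, 477 to 548, and there SPM overlapped CK. The peroxisomal sums were 24.8 to 25.5 in CK, 24.6 to 26.4 in DCM and, in SPM, 18.4 to 22.2, where the SPM libraries lay below all others.

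Etfb was close to 0 in all libraries. It encodes the beta subunit of electron transfer flavoprotein, which takes electrons from the acyl-CoA dehydrogenases, and pairs with the alpha subunit encoded by Etfa. Etfb had at most 0.135 normalized CPM in any library and did not pass the filter, whereas Etfa had 516 to 676. In the GENCODE M21 annotation, 617 of the 1164 exon bases of Etfb (53.0%) are shared with Gm45233 on the same strand, which itself had 0.0324 to 0.642 normalized CPM. How reads in shared exons were counted is not given in the sources used here, and the part of this in the Etfb value was not tested.

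Uptake and activation. Slc27a1, also called FATP1, is a transport protein that also links fatty acids to CoA. Its normalized CPM were 302, 299 and 332 in CK, 479.9, 544 and 493 in DCM, and 350.5, 376 and 381 in SPM. The DCM libraries were the highest and the SPM libraries lay between DCM and CK, with no overlap. Slc27a1 rose in DCM compared to CK by 0.70 ± 0.08 (adjusted p = 0.000167) and fell in SPM compared to DCM, with -0.46 ± 0.08 (adjusted p = 0.0107). Without SPM replicate 2 the latter was -0.47 with an adjusted p of 0.0566. Against CK, SPM hearts had 0.24 ± 0.06 more on this scale (adjusted p = 0.0236), and without SPM replicate 2 the adjusted p was 0.116.

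Cd36 encodes the fatty acid translocase, the main route of long-chain fatty acids into cardiomyocytes. It had 1412, 1465 and 1590.0 normalized CPM in CK, 1559, 1806 and 1933 in DCM, and 2098, 2103 and 2094 in SPM. CK and DCM overlapped, and the SPM libraries lay above both and close together. The log2 fold change was 0.25 ± 0.09 in DCM compared to CK (adjusted p = 0.112) and 0.25 ± 0.09 in SPM compared to DCM (adjusted p = 0.0766), and neither passed. Cd36 rose in SPM compared to CK by 0.49 ± 0.06 (adjusted p = 0.00126), the smallest adjusted p of this step in that comparison. Without SPM replicate 2 the rise was 0.49 (adjusted p = 0.0100). With the GC offset this value was 0.13 (adjusted p = 0.258), and that of SPM compared to DCM was -0.15 (adjusted p = 0.455). The transcript of Cd36 has a GC content of 38.4%, against a median of 49.7% over all genes tested in SPM compared to CK.

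Fabp3, the heart's cytosolic fatty acid binding protein, and Acsl1, the main long-chain acyl-CoA synthetase of the heart, rose in DCM compared to CK by 0.41 ± 0.09 (adjusted p = 0.0105) and 0.28 ± 0.08 (adjusted p = 0.0448). Both were also higher in SPM than in CK, with 0.24 and 0.31. Against DCM, SPM had -0.17 for Fabp3 (adjusted p = 0.201) and 0.03 for Acsl1 (adjusted p = 0.796), and neither passed. The call of Acsl1 was kept in 1 of 6 fits that left out a DCM or CK library, and that of Fabp3 in 5 of 6.

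The carnitine shuttle. Cpt1a encodes a carnitine palmitoyltransferase of the outer mitochondrial membrane, which makes the carnitine ester and sets the rate of entry. It is the liver-type form of the enzyme and a minor form in the adult heart. Its normalized CPM were 135, 133 and 149 in CK, 201, 211 and 208 in DCM, and 157, 167 and 179 in SPM. The 3 groups did not overlap and SPM lay between CK and DCM. Cpt1a rose in DCM by 0.57 ± 0.07 (adjusted p = 0.00032), the smallest adjusted p of this step, and was lower in SPM than in DCM by -0.30 ± 0.07 (adjusted p = 0.0218), which was 0.117 without SPM replicate 2. It also rose in SPM compared to CK, by 0.27 ± 0.07 (adjusted p = 0.0254), which was 0.0947 without SPM replicate 2.

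Mlycd encodes malonyl-CoA decarboxylase, which removes malonyl-CoA, the inhibitor of the outer carnitine palmitoyltransferase. It had 269, 254 and 253 normalized CPM in CK, 329, 352 and 316 in DCM, and 205, 229 and 244 in SPM. All DCM libraries were above all others and all SPM libraries below all others. Mlycd rose in DCM by 0.36 ± 0.07 (adjusted p = 0.00719) and fell in SPM compared to DCM, with -0.56 ± 0.08 (adjusted p = 0.00864). The latter was -0.57 without SPM replicate 2 (adjusted p = 0.0456) and -0.37 with the GC offset (adjusted p = 0.0303). The SPM value against CK was a log2 fold change of -0.20 ± 0.07 (adjusted p = 0.0659), which did not pass.

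Slc22a5 encodes the plasma membrane carnitine transporter. It had 45.6, 47.2 and 47.7 normalized CPM in CK, 42.8, 46.3 and 44.1 in DCM, and 35.0, 37.0 and 33.9 in SPM. CK and DCM overlapped and the SPM libraries lay below both. Its log2 fold change was -0.08 ± 0.07 in DCM compared to CK (adjusted p = 0.561). It fell in SPM compared to DCM, with -0.33 ± 0.07 (adjusted p = 0.0166), and in SPM compared to CK, with -0.41 ± 0.06 (adjusted p = 0.00297). Without SPM replicate 2 these were -0.36 (adjusted p = 0.0757) and -0.45 (adjusted p = 0.0176). Cpt2, the inner membrane transferase, resembled it with 282 to 294 normalized CPM in CK, 289 to 322 in DCM and, in SPM, 215 to 275. It passed only in SPM compared to DCM, with -0.31 ± 0.09 (adjusted p = 0.044), and without SPM replicate 2 the adjusted p was 0.151.

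Slc25a20, the carnitine-acylcarnitine carrier of the inner membrane, and Crat, the carnitine acetyltransferase that buffers acetyl-CoA, rose in DCM by 0.53 ± 0.07 (adjusted p = 0.000518) and 0.40 ± 0.07 (adjusted p = 0.0046). The values of SPM against DCM were -0.19 (adjusted p = 0.101) and -0.21 (adjusted p = 0.0694), which did not pass. Both rose in SPM compared to CK, by 0.34 and 0.18.

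**Figure D3:**
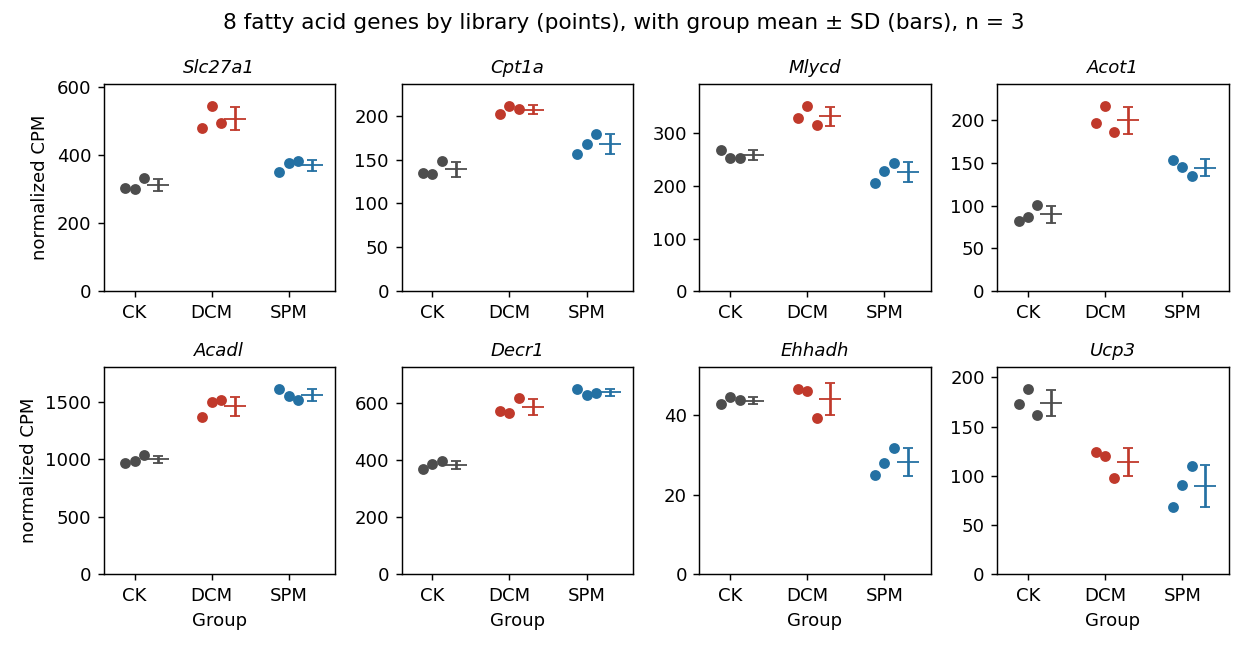
Normalized CPM (vertical axes, starting at 0) of 8 genes in CK, DCM and SPM, with 1 point per library and the group mean ± SD beside the points (n = 3). Slc27a1, Cpt1a, Mlycd and Acot1 are highest in DCM, Acadl and Decr1 are high in both DCM and SPM, Ehhadh is low in SPM (24.9 to 31.8), and Ucp3 is highest in CK (162 to 188).

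The promoter of Cpt1a is shown because Cpt1a had the smallest adjusted p of the shuttle genes in DCM and its promoter holds the hexamer AGGTCA, to which nuclear receptors such as PPAR-alpha bind in pairs. The sequence spans 250 bases before to 50 bases after the transcription start in RefSeq, build GRCm38.p6, chr19:3323051-3323350, plus strand. The capitals mark the hexamer, which reads AGGTCA on the minus strand. The first capital of the printed sequence lies 94 bases before the start.
Cpt1a: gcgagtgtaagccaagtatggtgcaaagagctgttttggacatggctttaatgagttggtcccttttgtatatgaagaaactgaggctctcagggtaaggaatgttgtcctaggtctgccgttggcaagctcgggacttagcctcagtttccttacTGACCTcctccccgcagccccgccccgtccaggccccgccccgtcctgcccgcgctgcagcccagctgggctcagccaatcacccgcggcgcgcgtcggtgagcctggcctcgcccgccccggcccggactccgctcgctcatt

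Both strands were searched for AGGTCA in the RefSeq promoters of 29 of the 34 genes. Of their 32 promoters, 6 held it, those of Acadm, Acadvl, Cd36, Cpt1a, Echs1 and Ucp3, and of all 32851 promoters of the same length 16.3% did. The direct repeat with 1 base between the hexamers, AGGTCANAGGTCA, was in none of the 32 promoters and in 13 of all (0.0396%). Of the 6 genes, Acadm, Acadvl and Cpt1a rose in DCM, Ucp3 fell, and Cd36 and Echs1 did not pass.

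Mitochondrial oxidation. Decr1 encodes the dienoyl-CoA reductase that unsaturated fatty acids need. It had 368, 385 and 395 normalized CPM in CK, 571, 564 and 616 in DCM, and 648, 626 and 634 in SPM. All DCM and SPM libraries were above all CK libraries, and the SPM libraries were the highest. Decr1 rose in DCM by 0.61 ± 0.07 (adjusted p = 0.000261) and in SPM compared to CK by 0.73 ± 0.05 (adjusted p = 0.00036), with 0.74 without SPM replicate 2 (adjusted p = 0.00297). These were the smallest adjusted p of this step in both comparisons. Between SPM and DCM the value was 0.12 ± 0.07 (adjusted p = 0.224), and with the GC offset -0.06.

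The acyl-CoA dehydrogenases make the first step of each turn and divide the work by chain length. Acadl, for long chains, had 970.5, 989.7 and 1037 normalized CPM in CK, 1368, 1501 and 1519 in DCM, and 1613, 1552 and 1517 in SPM. DCM and SPM overlapped and both lay above CK. Acadl rose in DCM by 0.55 ± 0.08 (adjusted p = 0.000652) and in SPM compared to CK by 0.64 ± 0.05 (adjusted p = 0.000406), or 0.64 without SPM replicate 2 (adjusted p = 0.00366). Between SPM and DCM it was 0.09 ± 0.07 (adjusted p = 0.407). Acadm, for medium chains, and Acadvl, for very long chains, rose in DCM by 0.36 ± 0.08 and 0.47 ± 0.07 and in SPM compared to CK by 0.43 and 0.38. In the annotation, 1151 of the 2686 exon bases of Acadvl (42.9%) overlap Dvl2 on the opposite strand, which had 11.0 to 14.0 normalized CPM against 634 to 896 for Acadvl, and whether counting used strand is not given in the sources used here.

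Acads is the dehydrogenase for short chains. It had 336, 306 and 341 normalized CPM in CK, 349, 388 and 332 in DCM, and 235, 265 and 283 in SPM. CK and DCM overlapped and SPM lay below both. Its log2 fold change in DCM compared to CK was 0.12 ± 0.08 (adjusted p = 0.397). Acads fell in SPM compared to DCM, with -0.45 ± 0.09 (adjusted p = 0.0147), the smallest adjusted p of this step in that comparison, and in SPM compared to CK, with -0.33 ± 0.08 (adjusted p = 0.0157). Without SPM replicate 2 the adjusted p were 0.0668 and 0.064, and with the GC offset 0.0813 and 0.18. Echs1, the hydratase for short chains, had 362 to 378 normalized CPM in CK, 369 to 377 in DCM and, in SPM, 305 to 324. It fell in SPM compared to DCM, with -0.24 ± 0.06 (adjusted p = 0.0317), and in SPM compared to CK, with -0.24 ± 0.05 (adjusted p = 0.0129), and without SPM replicate 2 the adjusted p were 0.161 and 0.0784.

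Hadha and Hadhb encode the 2 subunits of the mitochondrial trifunctional protein, which carries out the later steps for long chains. Hadha had 1899 to 2075 normalized CPM in CK, 2530.1 to 2705 in DCM and, in SPM, 2538 to 2623. Hadhb had 1384 to 1516 in CK, 1784 to 1921 in DCM and, in SPM, 1905 to 1964. Both rose together in DCM, by 0.42 ± 0.08 (adjusted p = 0.00405) and 0.38 ± 0.08 (adjusted p = 0.00734), and in SPM compared to CK by 0.38 and 0.43. With the GC offset the latter were kept by Hadha and lost by Hadhb, at 0.09 (adjusted p = 0.437). Their promoter is shown because both genes are read outward from it. In RefSeq their starts lie 273 bases apart on chromosome 5, with Hadha on the minus and Hadhb on the plus strand. The sequence is the window of Hadhb, build GRCm38.p6, chr5:30155003-30155302, plus strand, and the capitals mark the 228 bases that also belong to the window of Hadha.
Hadhb: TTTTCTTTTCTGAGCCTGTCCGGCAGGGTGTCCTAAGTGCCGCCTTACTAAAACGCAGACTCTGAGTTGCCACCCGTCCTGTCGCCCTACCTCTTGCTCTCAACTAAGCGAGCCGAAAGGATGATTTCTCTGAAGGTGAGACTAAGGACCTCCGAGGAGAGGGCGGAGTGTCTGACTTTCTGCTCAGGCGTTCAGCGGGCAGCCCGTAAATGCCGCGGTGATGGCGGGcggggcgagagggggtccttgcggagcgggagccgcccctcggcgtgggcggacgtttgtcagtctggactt

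Of the other mitochondrial genes, 4 rose in DCM. Acaa2, the thiolase that closes the turn, rose by 0.53 ± 0.07 (adjusted p = 0.000756), from 1101 to 1188 normalized CPM in CK to 1609 to 1750.5 in DCM. Eci2, an enoyl-CoA isomerase, rose by 0.44 ± 0.07 (adjusted p = 0.00184). Hadh, the short-chain hydroxyacyl-CoA dehydrogenase, rose by 0.29 ± 0.07 (adjusted p = 0.0243), and Etfdh, which hands electrons to ubiquinone, by 0.30 ± 0.08 (adjusted p = 0.0325). The calls of Hadh and Etfdh were kept in 1 and 2 of 6 fits that left out a library. Eci1, the partner isomerase, and Etfa had 0.17 ± 0.07 (adjusted p = 0.172) and 0.25 ± 0.08 (adjusted p = 0.0675). Between SPM and DCM these 6 genes had log2 fold changes between -0.22 (Eci1, adjusted p = 0.0582) and 0.02 (Etfdh, adjusted p = 0.856).

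Peroxisomal oxidation. Ehhadh encodes the peroxisomal bifunctional enzyme, a hydratase and dehydrogenase. It had 42.8, 44.4 and 43.6 normalized CPM in CK, 46.5, 46.1 and 39.3 in DCM, and 24.9, 27.9 and 31.8 in SPM. CK and DCM overlapped, whereas all SPM libraries lay below both. Its log2 fold change was 0.01 ± 0.08 in DCM compared to CK (adjusted p = 0.949). Ehhadh fell in SPM compared to DCM, with -0.64 ± 0.10 (adjusted p = 0.00968), and in SPM compared to CK, with -0.64 ± 0.09 (adjusted p = 0.00225). Without SPM replicate 2 these were -0.63 (adjusted p = 0.052) and -0.63 (adjusted p = 0.0161), and with the GC offset -0.74 (adjusted p = 0.0200) and -0.70 (adjusted p = 0.00167). Without DCM replicate 2 the adjusted p of SPM compared to DCM was 0.0554. Pex11a, which takes part in the multiplication of peroxisomes, had 20.8, 20.1 and 21.1 normalized CPM in CK, 23.4, 25.4 and 26.5 in DCM, and 20.9, 24.9 and 26.1 in SPM. Its DCM libraries lay above CK, but its log2 fold change of 0.28 ± 0.09 had an adjusted p of 0.0587, and SPM overlapped both groups.

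Acaa1b, a peroxisomal thiolase, was close to 0 in most libraries. It had 0.159, 0.558 and 0.0324 normalized CPM in CK, 0.452, 0.169 and 0.264 in DCM, and 2.16, 1.32 and 0.684 in SPM. The counts behind these values were 5, 20 and 1 in CK, 18, 5 and 9 in DCM, and 70, 41 and 21 in SPM. In DCM compared to CK it did not pass the filter on low counts. In the SPM comparisons it met the filter only through the SPM libraries, where it is high, so its log2 values of 2.18 ± 0.51 against DCM (adjusted p = 0.0222) and 2.40 ± 0.73 against CK (adjusted p = 0.0409) are given as a description. The call against DCM was kept in 1 of 6 fits that left out a library, with values of 1.66 to 2.64, and that against CK in 2 of 6, with 1.91 to 3.79.

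Liver markers were also high in some of the libraries with a high Acaa1b. The summed level of the 16 liver markers, all with a row, was 22.4, 100.6 and 26.4 normalized CPM in CK, 44.4, 45.5 and 37.2 in DCM, and 468, 237 and 47.9 in SPM. SPM replicate 1 was highest for both and CK replicate 2 was the highest CK library for both. SPM replicate 3 had more Acaa1b than any CK or DCM library, whereas its liver sum was close to those of DCM and its Alb was at the DCM level. Within DCM, replicate 1 was highest for Acaa1b and replicate 2 for the liver sum. Alb, Ahsg and Cyp2e1 were the most abundant markers, and Alb ranged from 0.264 to 28.2 normalized CPM outside SPM and was 248, 113 and 0.293 in the SPM libraries. Apob, Fga, Fgg and Serpina1c were at 0 in all DCM libraries. Liver markers near 0 in DCM could meet the filter on low counts only through SPM libraries, so no count of those that passed is given. The liver's part in the Acaa1b result was not tested.

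**Figure D4:**
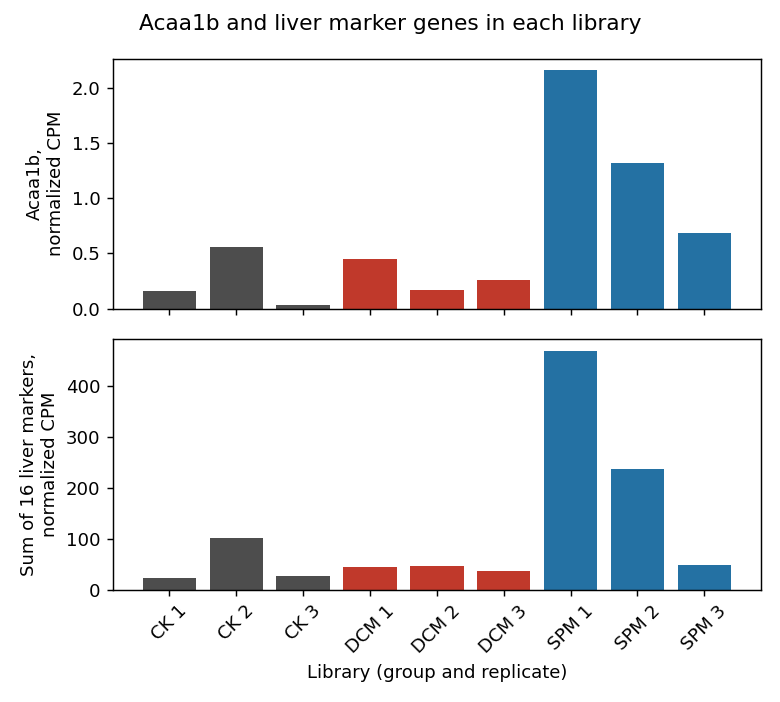
Normalized CPM of Acaa1b (upper bars) and summed normalized CPM of 16 liver markers (lower bars) in each of the 9 libraries, both axes starting at 0. SPM replicate 1 has the highest bar in both panels (2.16 and 468), and CK replicate 2 the highest of the CK bars (0.558 and 100.6).

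Thioesterases and uncoupling proteins. Acot1 encodes a cytosolic thioesterase that splits fatty acyl-CoA. It had 81.9, 86.8 and 101 normalized CPM in CK, 196, 217 and 186 in DCM, and 154, 145 and 135 in SPM. The 3 groups did not overlap, and SPM lay between CK and DCM. Acot1 had the highest fold change of all fatty acid genes in DCM compared to CK, 1.15 ± 0.09 on the log2 scale or 2.22-fold (adjusted p = 1.26e-05). It fell in SPM compared to DCM, with -0.47 ± 0.08 (adjusted p = 0.0111, and 0.0566 without SPM replicate 2). Compared to CK, SPM was higher by 0.68 ± 0.09 (adjusted p = 0.00154), or 0.68 without SPM replicate 2 (adjusted p = 0.00973).

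Acot2, its mitochondrial neighbour, has its start 21.6 kb from that of Acot1 on chromosome 12. It had 149.6, 144 and 153 normalized CPM in CK, 218, 238 and 223 in DCM, and 182, 207 and 227 in SPM. DCM and SPM overlapped, and both lay above CK. Acot2 rose in DCM by 0.61 ± 0.07 (adjusted p = 0.000182) and in SPM compared to CK by 0.46 ± 0.08 (adjusted p = 0.00531), or 0.46 without SPM replicate 2 (adjusted p = 0.0283). It did not pass in SPM compared to DCM, with -0.14 ± 0.09 (adjusted p = 0.267). Acot1 held 33.6% ± 2.08 of the summed FPKM of the pair in CK, 42.5% ± 1.17 in DCM and 37.3% ± 4.16 in SPM (SD, n = 3). The DCM libraries (41.2% to 43.3%) lay above the CK libraries (31.5% to 35.6%), and the SPM libraries (33.2% to 41.5%) overlapped both. The coding sequences of the pair are closely similar, and how reads that match both were counted is not given in the sources used here, so the split between them is uncertain.

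Ucp3 encodes a mitochondrial carrier of muscle that is known to follow fatty acid supply. It had 173, 188 and 162 normalized CPM in CK, 124, 120.4 and 98.3 in DCM, and 68.2, 90.4 and 110.3 in SPM. All CK libraries were above all others, and DCM and SPM overlapped. Ucp3 fell in DCM compared to CK, with -0.61 ± 0.09 (adjusted p = 0.00145), and in SPM compared to CK, with -0.97 ± 0.15 (adjusted p = 0.00332), or -0.97 without SPM replicate 2 (adjusted p = 0.0157). Against DCM, the SPM value was -0.35 ± 0.15 (adjusted p = 0.128). It was the only fatty acid gene tested that fell in DCM.

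Ucp2, whose start lies 20.4 kb from that of Ucp3 on chromosome 7, had 179.9, 152 and 130.4 normalized CPM in CK, 179.7, 169 and 168 in DCM, and 152, 162 and 169 in SPM. The groups overlapped and none of the comparisons passed, with 0.16 ± 0.10 in DCM compared to CK (adjusted p = 0.357). Per length, Ucp2 held 35.0% ± 3.41 of the summed FPKM of the pair in CK, 48.2% ± 2.68 in DCM and 52.9% ± 4.62 in SPM (SD, n = 3). The CK libraries (33.1% to 39.0%) lay below the DCM libraries (46.2% to 51.3%) and the SPM libraries (48.5% to 57.7%).

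The promoter of Ucp3 is shown because Ucp3 was the only fatty acid gene that fell in DCM and its promoter the only one of the 32 with 2 copies of AGGTCA. The window is from RefSeq, build GRCm38.p6, chr7:100472741-100473040, plus strand. The capitals mark the 2 hexamers on the plus strand, whose first bases lie 149 and 44 bases before the start.
Ucp3: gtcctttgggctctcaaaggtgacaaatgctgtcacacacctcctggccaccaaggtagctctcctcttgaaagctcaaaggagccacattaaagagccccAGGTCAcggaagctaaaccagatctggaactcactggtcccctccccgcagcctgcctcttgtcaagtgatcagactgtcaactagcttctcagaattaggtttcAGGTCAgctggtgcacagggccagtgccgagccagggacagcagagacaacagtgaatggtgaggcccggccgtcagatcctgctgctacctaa

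**Figure D5:**
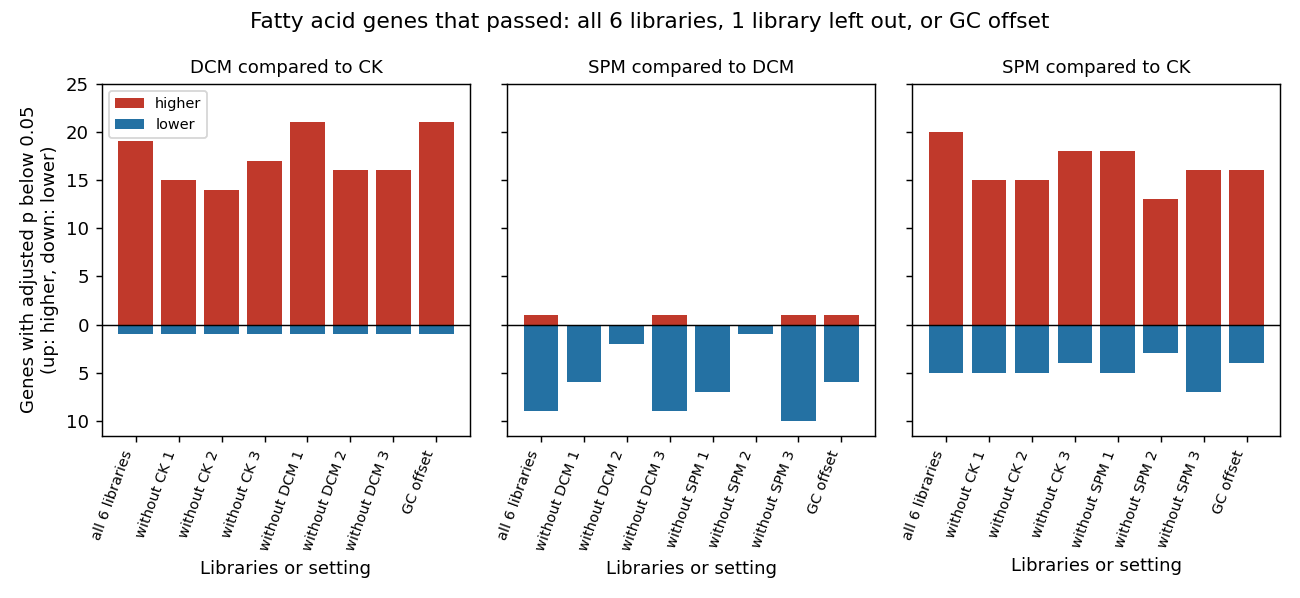
Number of fatty acid genes with an adjusted p below 0.05 (vertical axis, red bars upward for higher and blue bars downward for lower) with all 6 libraries, with 1 library left out, and with the GC offset, in the 3 comparisons. In SPM compared to DCM the count falls from 10 to 1 without SPM replicate 2 and to 2 without DCM replicate 2, while in DCM compared to CK it stays between 15 and 22.

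Most other genes of the pathway did not pass in DCM compared to CK. Of 74 further genes of transport, shuttle, mitochondrial and peroxisomal oxidation and thioesterases, listed by role, 70 had a row. In DCM compared to CK, 8 of 63 tested rose and 1 fell, where 5.28% of all genes passed as higher and 5.11% as lower. The other 54 did not pass, and the median log2 fold change of the 63 was 0.05. Among the genes that rose were Acss1, Dbi, Acacb, Acad12, Ech1, Cat and Acot7, and Fabp5 fell. Ech1, a dienoyl-CoA isomerase of mitochondria and peroxisomes, was the only DEG. It had 1480.1, 1483 and 1533 normalized CPM in CK, 2637, 2742 and 2470.3 in DCM, and 2387, 2357 and 2388 in SPM, and rose in DCM by 0.80 ± 0.07 (adjusted p = 5.04e-05). Of these genes, 1 of 63 rose and 11 fell in SPM compared to DCM, with a median of -0.14, where 8.87% and 7.76% of all genes passed. When SPM replicate 2 was left out, 0 of the 63 passed in edgeR, against 0.486% of all genes. In that fit 17 had an unadjusted p below 0.05 and the median was still -0.14. With the GC offset 1 rose and 5 fell, where 1.24% of all genes passed as higher and 1.84% as lower. The 7 that rose and 10 that fell of 65 in SPM compared to CK were near the shares of all genes, 13.0% and 14.3%.

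Genes that regulate the pathway were also measured. Of 9 regulators listed, all tested, 3 rose and 1 fell in DCM compared to CK. Of all genes, 5.28% passed as higher and 5.11% as lower. Ppara, the gene of PPAR-alpha, had 23.9, 21.7 and 31.5 normalized CPM in CK, 37.1, 37.1 and 43.0 in DCM, and 47.0, 40.1 and 37.1 in SPM. The DCM and SPM libraries lay above CK, and Ppara rose in DCM by 0.61 ± 0.13 (adjusted p = 0.00878) as a DEG. The coactivator genes Ppargc1a and Ppargc1b rose by 0.37 ± 0.09 (adjusted p = 0.0178) and 0.47 ± 0.09 (adjusted p = 0.00455), and Ppard fell, with -0.35 ± 0.09 (adjusted p = 0.0218). Ppargc1a and Prkaa2 rose in SPM compared to DCM, by 0.41 each, and Esrra fell, with -0.23. In the fit without SPM replicate 2 these were 0.40 (adjusted p = 0.0708), 0.41 (adjusted p = 0.0676) and -0.23 (adjusted p = 0.181), and with the GC offset Ppargc1a had 0.12 (adjusted p = 0.392), Prkaa2 0.09 (adjusted p = 0.545) and Esrra -0.22 (adjusted p = 0.0748), so none of the 3 passed in either fit. The regulators other than Ppara, the target Pdk4 and the genes of the wider pathway other than Ech1 are named here after their values were seen.

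Of 6 targets of PPAR-alpha outside oxidation, 2 rose and 2 fell in DCM compared to CK. Of all genes, 5.28% passed as higher and 5.11% as lower. Plin5, a coat protein of lipid droplets, had 203, 189 and 226 normalized CPM in CK, 288, 355 and 297 in DCM, and 214, 228 and 237 in SPM. It rose in DCM by 0.60 ± 0.09 (adjusted p = 0.0017). Angptl4, an inhibitor of lipoprotein lipase, had 139, 133 and 107 in CK, 84.9, 67.0 and 74.0 in DCM, and 25.2, 40.7 and 52.3 in SPM. It fell in DCM, with -0.74 ± 0.11 (adjusted p = 0.00103), and again in SPM compared to DCM, with -0.94 ± 0.20 (adjusted p = 0.0184). Pdk4, the kinase that shuts off pyruvate oxidation, fell in DCM with -0.44 ± 0.08 (adjusted p = 0.00374). Against DCM, 5 of the 6 targets passed as lower in SPM hearts, where 7.76% of all genes did. Among them was Plin2, another lipid droplet protein, with -0.71 ± 0.10 (adjusted p = 0.00786). Plin2 had 154, 179 and 147 normalized CPM in DCM and 89.4, 95.4 and 108 in SPM. Plin2 was the only target that passed without SPM replicate 2, with -0.69 (adjusted p = 0.031), and Angptl4 had -0.96 (adjusted p = 0.0573). With the GC offset 3 of the 6 fell, where 1.84% of all genes did. These were Plin2 with -0.66, Angptl4 with -0.91 and Pdk4 with -0.60. These fits for genes outside the fatty acid list were added after the data were seen.

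Markers of other cell types moved in the same comparisons. In DCM compared to CK, the 8 cardiomyocyte markers had a median log2 fold change of -0.02, while 6 of 9 fibroblast markers and 2 of 6 atrial markers fell, 5 of 10 macrophage markers fell and 1 rose, and 2 of 10 endothelial markers fell and 1 rose. Of all genes tested, 5.28% passed in the higher direction and 5.11% in the lower. The summed fibroblast level was 2097 to 2203 normalized CPM in CK and 1432 to 1526 in DCM. In SPM compared to DCM, 1 of 8 cardiomyocyte markers and 4 of 5 erythroid markers fell. There, 5 of 10 macrophage markers, 2 of 9 fibroblast markers and 1 of 6 atrial markers rose. Of all genes, 8.87% passed as higher and 7.76% as lower. Without SPM replicate 2 none of these markers passed, and 0.486% of all genes did. With the GC offset, where 3.08% of all genes passed, only 2 of these markers passed, both macrophage markers and both higher. In that comparison the atrial markers had a median of 0.54, against -0.76 in DCM compared to CK. Between SPM and CK, 4 of 8 cardiomyocyte markers fell and 1 rose (median -0.21), and 5 of 9 fibroblast markers fell and 2 rose. All 5 erythroid markers fell (median -1.44). Of all genes, 13.0% passed as higher and 14.3% as lower in SPM compared to CK. When SPM replicate 2 was left out, 5 fibroblast and 3 erythroid markers fell in SPM compared to CK, and no fibroblast marker rose. In that fit 0 of the 8 cardiomyocyte markers passed, while their median was still -0.21. Of all genes, 5.26% passed as higher and 5.10% as lower in it. Fat markers summed to 967 to 1084 normalized CPM in CK, 974 to 999 in DCM and, in SPM, 980.0 to 1096, most of it Fabp4, and Ucp1 had at most 0.930 in any library. The part of these cell types in the fatty acid results was not tested.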

How the data were processed

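RNA of 9 heart libraries (CK, DCM and SPM, 3 each) was measured by poly(A) selection, rRNA removal and Illumina sequencing, and groups follow the titles of the libraries. The authors deposited counts, whole numbers of reads per gene, made from reads filtered with fastp 0.18.0. The submitters' processing notes list Bowtie 0.12.2 and the builds mm8 and mm9 with no role, but name neither a counting tool nor an annotation. FPKM values were deposited as well, and they are the counts over a fixed gene length and the total of the library (largest relative deviation 8.59e-13). FPKM were used for levels between genes and for an alternative test, counts for all else.

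The fatty acid genes and the other lists were chosen with earlier results of these data known. Gene names and GC content came from GENCODE M21, in which 22820 of 22851 identifiers were found. Pairs of groups were compared with edgeR 4.0.16 (R 4.3.3), using filterByExpr, TMM and its quasi-likelihood test, over all genes that passed the filter (14402 to 14574), with Benjamini-Hochberg adjustment. The limits were an adjusted p of 0.05 and, for DEGs, a fold change of 1.5. The SE is the log2 fold change divided by the square root of its F statistic. Normalized CPM use the TMM factors of all 9 libraries. At library totals of 29901300 to 39718680 counts, the lowest count of any fatty acid gene other than Acaa1b and Etfb was 649 (Pex11a). The steps were tested on simulated data.

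All fatty acid genes with a row are named. Values per library are given for those called DEG in any comparison and those with the smallest adjusted p of each step. Of other lists, those called DEG in DCM against CK or SPM against DCM are named, with the 3 most abundant of the liver markers, and some of these genes are not reported here. Correlations of residuals lay between -0.0746 and 0.205 for libraries of the same replicate number and between -0.284 and 0.217 for other numbers. The libraries were not treated as paired in the main fits, but residuals of 3 libraries per group cannot exclude pairing. The alternatives were RLE normalization, no filter on low counts, at least 1 CPM in 3 libraries, a joint fit of 9 libraries, a block for replicate number, removal of mitochondrial genes, a GC offset (lowess, span 0.3), both together, DESeq2 1.42.0, limma 3.58.1 on log2 of FPKM plus 0.1, a fold change of 1.3, and each library left out in turn. Motif searches and figures used Python 3.11.15 with matplotlib 3.10.9.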

Additional observations from a re-analysis of the deposited data

How the results depend on the processing

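With all libraries kept, the number of fatty acid genes that passed stayed within 1.5 times of its value under RLE, both filters, 1 fit of 9 libraries, removal of mitochondrial genes, the GC offset, DESeq2 and limma on FPKM, at 15 to 22 in DCM compared to CK, 7 to 15 in SPM compared to DCM and 20 to 28 in SPM compared to CK. The shares of all genes that passed in these fits were 7.89% to 13.0%, 3.08% to 19.4% and 17.2% to 31.4%, in the same order. The replicate block gave 17, 12 and 24 genes that passed and 5, 2 and 6 DEGs. In that fit 9.04%, 19.4% and 26.3% of all genes passed and 3.94%, 4.21% and 8.80% were DEGs. When the GC offset was added to the block, 22, 9 and 20 passed, where 11.1%, 6.22% and 22.4% of all genes did. With 1 library left out, 15 to 22, 1 to 11 and 16 to 23 genes passed and 3 to 7, 0 to 3 and 4 to 6 were DEGs. Of all genes, 5.59% to 8.91%, 0.486% to 16.3% and 10.4% to 25.2% passed in these fits. DEGs made up 2.86% to 4.73%, 0.378% to 5.29% and 5.18% to 10.6% of all genes in the same fits. A fold change of 1.3 gave 14, 6 and 13 DEGs, where 7.64%, 8.96% and 17.4% of all genes were DEGs. In DCM compared to CK, limma on FPKM gave 3 DEGs, where 4.81% of all genes were DEGs. In SPM compared to DCM, 1 CPM in 3 libraries gave 1, since Acaa1b failed that filter. There 3.62% of all genes were DEGs. On the CPM scale Ucp2 held 46.7%, 60.2% and 64.6% of its pair in CK, DCM and SPM, and Acot1 37.6% and 46.8% in CK and DCM, since this scale is not per length.

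No fatty acid gene that passed turned its direction. Among those that did not pass, limma on FPKM turned Cpt2 (-0.011), Echs1 (-0.079) and Ehhadh (-0.081) in DCM compared to CK and Ucp2 (-0.024) in SPM compared to CK, with the median of all genes at -0.09 and -0.08 in these fits. In SPM compared to DCM the GC offset turned Cd36 (-0.15), Acsl1 (-0.14), Acadl (-0.070), Acadvl (0.0033), Hadha (0.00027), Hadhb (-0.32), Decr1 (-0.061), Etfdh (-0.19) and Ucp2 (0.015). The replicate block with the GC offset gave -0.14, -0.14, -0.068, 0.0036, 0.00083, -0.31, -0.061, -0.18 and 0.014 for the same genes, where Hadhb passed as lower (adjusted p = 0.0473). Eci1 in SPM compared to CK became 0.052 in both. With 1 library left out, log2 fold changes ranged over -0.0076 to 0.026 for Echs1 and -0.023 to 0.094 for Ehhadh in DCM compared to CK, -0.032 to 0.070 for Acsl1, -0.046 to 0.052 for Etfdh and -0.14 to 0.017 for Pex11a in SPM compared to DCM, and -0.051 to 0.18 for Ucp2 in SPM compared to CK. The cause was not tested. Acaa1b and Etfb are limited by their counts.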
